A study of Mus musculus with 6 samples.

Results

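Genes for the uptake and oxidation of fatty acids were described here in cardiomyocytes, the muscle cells of the heart, from mouse embryos with and without Yap1. The 47 genes were chosen by symbol and sorted by step into uptake, activation, carnitine shuttle, beta-oxidation, thioesterases and regulators. Of these, 44 had a probe set annotated to that gene alone, and 43 passed the filter on dim signal, among 13614 genes tested. Acsl1, Acsl3 and Cpt1b were without such a probe set and are not analysed here, and Ucp3 was measured but lay under the filter.

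Gene expression had been measured on 6 Affymetrix arrays, 1 for each RNA sample, 3 from Yap HET and 3 from Yap KO embryos at E12.5. All embryos came from crosses of the TNTCre, Yap flox and R26 mTmG strains. TNTCre carries a Cre recombinase that acts in heart muscle through the promoter of cardiac troponin T, and mTmG makes recombined cells fluoresce green, so both groups had Cre and the reporter and the sorted cells had undergone recombination. The controls were heterozygous for Yap (TNTcreYapfl_het) and the others were knockouts (TNTcreYapfl_KO), so the comparison sets loss of Yap against a reduced dose and not against the wild type. Single hearts were digested and green cells sorted. The sources used here do not state whether RNA of several hearts was combined or which embryos were littermates. The 3 samples of a group are called biological replicates.

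Long-chain fatty acids are released from lipoproteins by lipoprotein lipase, cross the cell membrane with the help of transporters and are carried in the cytosol by small binding proteins. Acyl-CoA synthetases activate them, the carnitine shuttle moves them into mitochondria, and beta-oxidation shortens them in repeated cycles of dehydrogenation, hydration, a second dehydrogenation and thiolysis. Thioesterases reverse the activation, and nuclear receptors of the PPAR and ERR families with their PGC-1 coactivators control the expression of many of these genes. The adult heart draws most of its energy from this pathway, whereas the heart before birth relies more on glucose and lactate.

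The values are probe set intensities, and changes are given on the log2 scale as Yap KO minus Yap HET with the standard error (SE) and, where stated, the 95% confidence interval. A change is called when the adjusted p of limma, by the Benjamini-Hochberg method over all genes tested, is under 0.05. The median intensity over all probe sets was between 128 and 140 on the 6 arrays. Yap1 itself, the targeted gene, read 871 to 927 on the Yap HET arrays and 84.7 to 103 on the Yap KO arrays (-3.29 ± 0.08, limma adjusted p = 2.81e-06). Cardiomyocyte markers were bright on all arrays, with 16 of 16 above the filter and a summed intensity of 116192 to 117775 in Yap HET and 115815 to 118463 in Yap KO samples. Among them Nppa, the atrial natriuretic peptide gene, rose by 0.19 ± 0.05 (limma adjusted p = 0.049), and that call ended whichever array was left out. Erythroid markers were uneven, with summed intensities of 422 to 816 in Yap HET and 551 to 2715 in Yap KO samples, the highest on Yap KO replicate 1.

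Few of the fatty acid genes changed. Of the 43 tested, Fabp4, a fatty acid binding protein, rose and Acot2, a mitochondrial thioesterase, fell, which was 2 called genes where 9.95% of all genes tested were called. The share called higher was 5.19% of all genes and the share called lower 4.77%. The median change was -0.001 over the 43 members and -0.02 over all genes tested. In 15 members the 3 Yap KO values did not overlap the 3 Yap HET values, 5 above and 10 below, against 34.0% of all genes tested (16.7% above and 17.2% below), so the members' share was near the background. At an unadjusted limma p under 0.05 stood 9 members, against 28.3% of all genes tested. The members' changes ranged from -0.30 to 0.28, all under 0.5 in size.

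The intervals limit how large a missed change could be. For 31 of the 43 members the 95% interval lay within 0.25 of no change, equal to 1.19-fold, and for 42 it lay within 0.5, equal to 1.41-fold. Over all genes tested these shares were 46.4% and 92.1%. The exception at the wider limit was Fabp5, with an interval of 0.02 to 0.54. The members were brighter than most genes, 35 of 43 lying above the median gene, and their median SD within a group was 0.066 against 0.080 over all genes tested. With 3 arrays in a group, precision is limited for every gene.

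**Figure D1:**
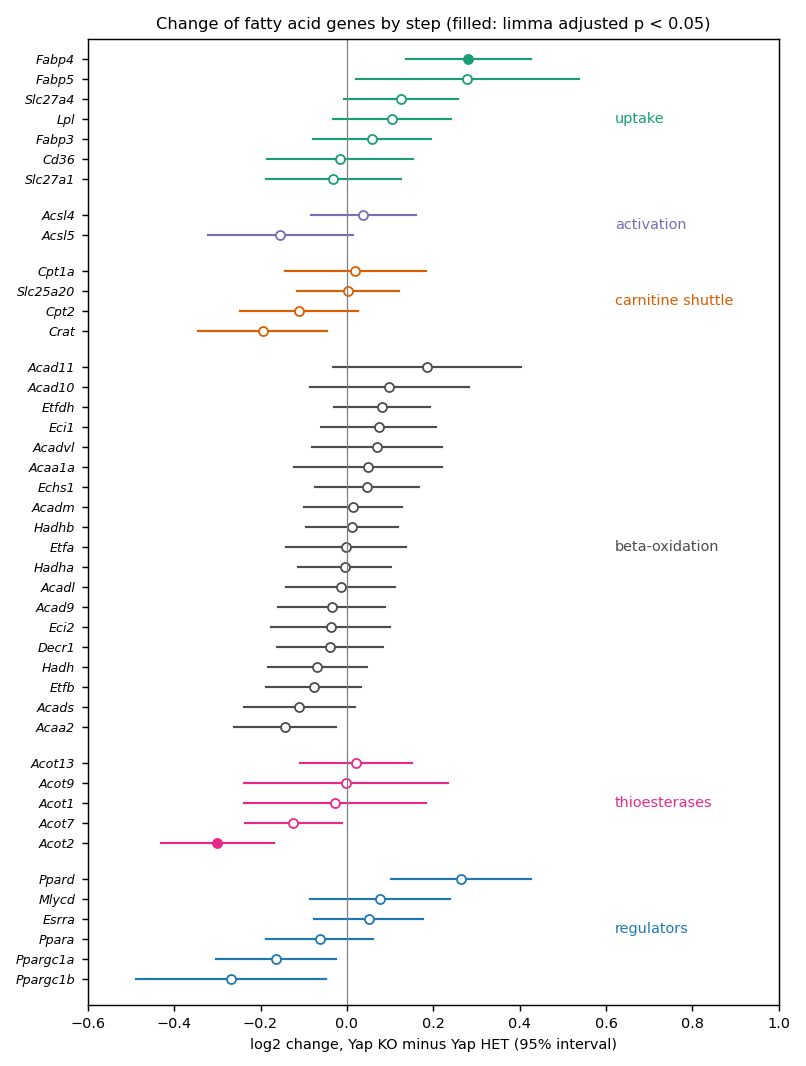
Log2 change of the 43 tested fatty acid genes, Yap KO minus Yap HET, by step, with the 95% interval as a line (3 arrays per group). Filled points mark the 2 genes past the threshold, Fabp4 at 0.28 and Acot2 at -0.30, and 34 of the 43 intervals include 0.

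The thioesterases held the one fall. Acot2, which splits long-chain acyl-CoA in the mitochondrial matrix, read 3142, 2893 and 2917 in Yap HET and 2327, 2468 and 2477 in Yap KO samples. All Yap KO values lay under all Yap HET values, and the change was -0.30 ± 0.06 (interval -0.43 to -0.17, limma adjusted p = 0.019), a 1.23-fold lower level. The call ended when replicate 1 of Yap HET (-0.26, adjusted p = 0.078) or replicate 2 of Yap KO (-0.31, adjusted p = 0.066) was left out, and also with median centring (-0.24, adjusted p = 0.062). It ended too with no filter, with an unmoderated linear model and with a block for the replicate number. Of 17 alternatives 11 kept the call. Acot1, its cytosolic counterpart, lies next to it in the genome and is close to it in sequence, so that a probe set of one can also pick up transcripts of the other. Acot1 was dim, at 109, 121 and 108 against 106, 101 and 125, with overlapping groups and a change of -0.03 ± 0.09 (interval -0.24 to 0.18). The difference between the changes of Acot2 and Acot1 was not tested.

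Acot7, a cytosolic thioesterase best known from neurons, read 967, 980.2 and 947 in Yap HET and 861, 907 and 887 in Yap KO samples. Its groups did not overlap, and its change was -0.12 ± 0.05 (limma adjusted p = 0.14). Acot9 and Acot13, both tied to mitochondria, had changes of -0.001 ± 0.10 and 0.02 ± 0.06. The 5 thioesterases had a median change of -0.03, which moved to -0.12 without Yap KO replicate 3.

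Stretches of 250 bases before the RefSeq gene starts (GRCm38.p6) are shown for Acot2, the member that fell, for its neighbour Acot1, and for Cpt1a, the 1 member whose window held letters of both short motifs found among the members. Capitals mark those letters, and the sequences run 5′ to 3′ on the strand of the gene, the plus strand in all 3. The stretches are chr12:83987611-83987860 for Acot2, chr12:84009252-84009501 for Acot1 and chr19:3323051-3323300 for Cpt1a.
Acot2: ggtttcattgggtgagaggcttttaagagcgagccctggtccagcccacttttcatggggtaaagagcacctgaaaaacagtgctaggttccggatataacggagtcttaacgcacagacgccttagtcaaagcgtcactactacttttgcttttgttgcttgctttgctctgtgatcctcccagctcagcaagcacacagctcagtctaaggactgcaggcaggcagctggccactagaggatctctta
Acot1: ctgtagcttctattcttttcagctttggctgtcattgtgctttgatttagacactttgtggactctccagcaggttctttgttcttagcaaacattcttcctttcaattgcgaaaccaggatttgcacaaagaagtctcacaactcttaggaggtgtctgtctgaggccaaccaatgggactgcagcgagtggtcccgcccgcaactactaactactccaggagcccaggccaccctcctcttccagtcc
Cpt1a: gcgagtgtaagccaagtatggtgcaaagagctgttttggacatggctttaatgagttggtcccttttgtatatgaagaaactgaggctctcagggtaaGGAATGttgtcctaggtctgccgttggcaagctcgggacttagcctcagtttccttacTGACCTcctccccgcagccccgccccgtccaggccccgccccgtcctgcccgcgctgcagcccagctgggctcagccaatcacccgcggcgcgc
The starts of Acot2 and Acot1 lie 21.6 kb apart.

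Promoter windows of 300 bases, 250 before and 50 after the start, were at hand for 37 of the 47 members and for 27025 genes in all. Searched on both strands, GGAATG, the core bound by the TEAD partners of Yap, was in the windows of 5 members (Acsl1, Cpt1a, Etfb, Slc25a20 and Slc27a1) and of 16.6% of all genes. AGGTCA, the half-site of many nuclear receptors, was in those of 6 members (Acadm, Acadvl, Cd36, Cpt1a, Echs1 and Ucp3) and of 18.1% of all genes. The longer TCAAGGTCA, which contains this half-site and is bound by ERR receptors, was found in 0 member windows and 0.466% of all, and the repeat bound by PPARs, AGGNCA followed by any base and again AGGNCA, which can overlap the half-site, in 0 and 0.451%. In Cpt1a the letters GGAATG began 152 bases before the start, and TGACCT, the half-site on the other strand, 94 bases before it. A match is a description of letters and not a binding site, and the members with either short motif that were tested, all but Acsl1 and Ucp3, were not called.

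In the uptake step, 1 of 7 genes rose, 0 fell, and the median change was 0.11 (0.07 to 0.14 with 1 array left out, 0.063 with array weights and 0.17 with median centring). Fabp4, known from adipocytes, capillary endothelium and macrophages, read 96.0, 89.8 and 95.4 in Yap HET and 106, 116 and 119.7 in Yap KO samples. All Yap KO values lay above all Yap HET values, and the change was 0.28 ± 0.06 (interval 0.14 to 0.43, limma adjusted p = 0.031). These levels lie close to the filter at an intensity of 86.4, and the change was 1.22-fold. The call remained in 1 of the 6 fits that left out an array, that without Yap KO replicate 1 (adjusted p = 0.026), and in the other such fits the adjusted p lay between 0.059 and 0.122. Of all 16 alternatives 7 kept the call.

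Markers of endothelial and endocardial cells were mixed, while their summed level was higher on each Yap KO array than on any Yap HET array. Of 14 markers 13 were above the filter, and the summed intensity of the 14 was 2422, 2273 and 2327 in Yap HET and 2565, 2762 and 2702 in Yap KO samples. Kdr is among the 14, at 225, 239 and 241 in Yap HET and 400, 387 and 411 in Yap KO samples. Without Kdr the summed levels of the groups overlap. Of those 13, Kdr (0.76 ± 0.05), Eng (0.52 ± 0.08) and Nfatc1 (0.31 ± 0.08) rose, Npr3 (-0.34 ± 0.06) fell, and 9 were not called, with 8 of the 13 changes above 0 and 5 under it. The pan-endothelial marker Pecam1 read a mean of 82.5 in Yap HET, under the filter, and 90.6 in Yap KO samples. It thus passed the filter through the Yap KO arrays. The part of these cells in the Fabp4 result was not tested, and in sorted bulk samples more cells of a type and more RNA per cell cannot be told apart. Macrophage markers, 12 with 5 above the filter, summed to 1369 to 1463 in Yap HET and 1035 to 1264 in Yap KO samples. By limma 0 of those 5 were called, though 3 were lower at an unadjusted p under 0.05. The part of macrophages in the Fabp4 result was not tested either. The 11 mesenchymal and pericyte markers summed to 5994 to 6230 in Yap HET and 7181 to 9166 in Yap KO samples. Pdgfra, Pdgfrb, Postn and Cspg4 among them rose, while 7 had overlapping groups and were not called. Of the 11 changes 9 were above 0 and 2 under it. Epicardial markers summed to 3792 to 4630 in Yap HET and 2735 to 4000 in Yap KO samples, with 6 of 8 changes under 0 and a median of -0.27, although Tcf21 among them rose (0.93 ± 0.17). Of the 6 fits that left out an array, the calls of Kdr, Eng, Pdgfra and Pdgfrb were kept in all 6, those of Npr3 and Postn in 5, Tcf21 in 4, Cspg4 in 2 and Nfatc1 in 1. The call of Npr3 was lost without replicate 1 of Yap HET, that of Postn without replicate 2 of Yap KO, and that of Tcf21 without replicate 1 of Yap HET or replicate 3 of Yap KO.

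Fabp5, a related binding protein, read 742, 773 and 584 in Yap HET and 779, 837 and 916 in Yap KO samples. The groups did not overlap, but Yap HET replicate 3 stood well under the other two of its group, and the change of 0.28 ± 0.11 was not past the threshold (limma adjusted p = 0.15). A second probe set of Fabp5 gave a difference of 0.28. Slc27a4, a fatty acid transport protein, had 474, 483 and 462 against 529, 537 and 484, again with no overlap and a change of 0.13 ± 0.06 (limma adjusted p = 0.20).

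The uptake genes most used by heart muscle differed little. Fabp3, the heart-type binding protein, read 3735, 3596 and 3324 in Yap HET and 3595, 3774 and 3706 in Yap KO samples, a change of 0.06 ± 0.06. Cd36, the main membrane translocase for fatty acids, read 1452, 1474 and 1403 against 1412, 1574 and 1307, a change of -0.02 ± 0.07 with an interval of -0.18 to 0.15. In both genes the groups overlapped. Lpl, the gene of lipoprotein lipase, had 2189, 2086 and 2006 against 2249, 2361 and 2147 (0.11 ± 0.06, limma adjusted p = 0.28), and the transporter Slc27a1 had a change of -0.03 ± 0.07.

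In the activation step 2 of 4 genes were tested and neither passed the test. Acsl5, a long-chain acyl-CoA synthetase of the mitochondrial outer membrane, read 782, 784 and 669 in Yap HET and 660.5, 653 and 691 in Yap KO samples. Its groups overlapped through Yap HET replicate 3, and its change was -0.15 ± 0.07 (limma adjusted p = 0.21). Acsl4, which prefers arachidonic acid, read 652, 704 and 668 against 693, 674 and 711, a change of 0.04 ± 0.05.

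**Figure D2:**
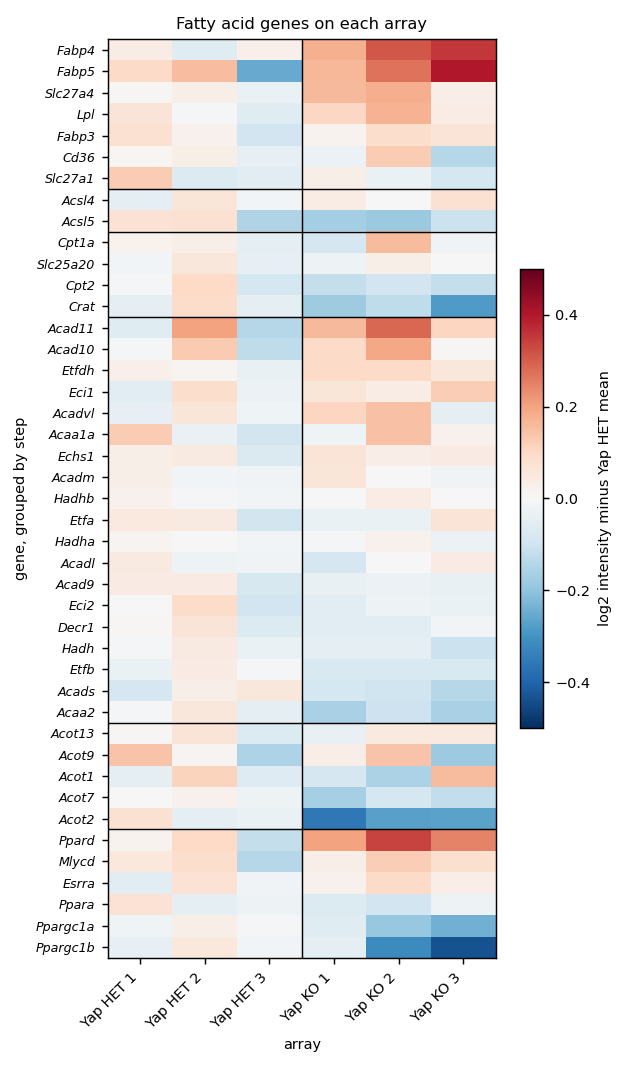
Log2 intensity of each of the 43 tested genes on each of the 6 arrays, minus the mean of that gene over the Yap HET arrays, by step; red is higher and blue lower. Fabp4 and Ppard were higher on all Yap KO arrays than on any Yap HET array and Acot2 lower, and the 19 beta-oxidation genes had changes between -0.14 and 0.19.

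In the carnitine shuttle 0 of the 4 genes tested were called by limma, 1 was lower at an unadjusted p under 0.05, and the median change was -0.05 (-0.015 without replicate 2 of Yap HET, -0.087 without replicate 3 of Yap HET and -0.085 without replicate 2 of Yap KO). The gene at that p was Crat, whose product moves acetyl groups between CoA and carnitine. Crat read 2777, 3052 and 2778 in Yap HET and 2536, 2628 and 2357 in Yap KO samples. The groups did not overlap, and the change was -0.19 ± 0.06 (interval -0.34 to -0.05, limma adjusted p = 0.097).

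Cpt2, the inner membrane carnitine palmitoyltransferase, read 1536, 1658 and 1457 against 1425, 1451 and 1426. Here too every Yap KO value was lower than every Yap HET value, by a change of -0.11 ± 0.06 (limma adjusted p = 0.26). Cpt1a, the outer membrane enzyme that limits entry into the mitochondrion and the main form before birth, read 1064, 1075 and 1018 against 993, 1174 and 1039.65. It had overlapping groups and a change of 0.02 ± 0.07, with an interval of -0.14 to 0.18. Slc25a20, the carrier that exchanges acylcarnitine for carnitine, changed by 0.002 ± 0.05.

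The 19 genes of beta-oxidation differed little between the groups. By limma 0 of them were called, with 1 lower, Acaa2, at an unadjusted p under 0.05, and the median change was -0.002 with a range of -0.14 to 0.19. Groups without overlap occurred in 5 of the 19, 1 above and 4 below. This was 26.3%, beside 34.0% of all genes tested (16.7% above and 17.2% below). The median absolute change was 0.05, against 0.10 over all genes tested. The median SD within a group was also smaller, 0.050 against 0.080. A smaller change and a lower spread between arrays cannot be told apart here.

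Among the acyl-CoA dehydrogenases, which open each cycle, the 7 genes had a median change of 0.01. Acads, the short-chain enzyme, read 1447, 1565 and 1597 in Yap HET and 1444, 1431 and 1392 in Yap KO samples, with no overlap and a change of -0.11 ± 0.06 (limma adjusted p = 0.24). Acad11, whose product acts on longer chains and hydroxylated acids, read 408, 488 and 385 against 476, 518 and 458, overlapping through Yap HET replicate 2. Its change was 0.19 ± 0.09 (limma adjusted p = 0.24). Without that array, which removes the overlap, it was 0.29 and past the threshold (limma adjusted p = 0.048). With any other array left out it was 0.11 to 0.22 and not called (limma adjusted p of 0.28 to 0.51). Acadm, the medium-chain enzyme, Acadl and Acadvl had changes of 0.01 ± 0.05, -0.01 ± 0.05 and 0.07 ± 0.07. Acad9, which also assembles respiratory complex I, had -0.03 ± 0.05, and the dim Acad10 had 0.10 ± 0.08.

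The 6 genes of the hydratase, hydroxyacyl dehydrogenase and thiolase steps had a median change of 0.004. Hadha and Hadhb, the 2 subunits of the trifunctional protein that handles long chains, had changes of -0.005 ± 0.05 and 0.01 ± 0.05, with intervals within -0.11 and 0.12. Acaa2, the mitochondrial thiolase, read 3760.5, 3937 and 3676 in Yap HET and 3384, 3527 and 3387 in Yap KO samples. It had no overlap and a change of -0.14 ± 0.05 (interval -0.26 to -0.02, limma adjusted p = 0.12). Hadh, the short-chain hydroxyacyl dehydrogenase, read 4608, 4788 and 4538 against 4493, 4485 and 4309, also without overlap, a change of -0.07 ± 0.05. The hydratase Echs1 and the peroxisomal thiolase Acaa1a had changes of 0.05 ± 0.05 and 0.05 ± 0.07.

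The isomerases and the reductase that prepare unsaturated fatty acids had changes of 0.07 ± 0.06 in Eci1, -0.04 ± 0.06 in Eci2 and -0.04 ± 0.05 in Decr1. The electron transfer flavoprotein, which passes electrons from the dehydrogenases on to ubiquinone, had its subunits Etfa and Etfb and its oxidoreductase Etfdh measured. Etfb read 4134, 4352 and 4202 in Yap HET and 4008, 4009 and 4009 in Yap KO samples, lower in each (-0.08 ± 0.05, limma adjusted p = 0.33). Etfdh read 1913, 1894 and 1828 against 2006, 2005 and 1953, higher in each (0.08 ± 0.05, limma adjusted p = 0.30). These 2 genes of linked function thus had small differences of opposite sign, neither past the test, and Etfa had -0.002 ± 0.06.

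Among the regulators 0 of the 6 genes tested were called by limma, while at an unadjusted p under 0.05 there were 1 higher, Ppard, and 2 lower. Ppard, a fatty acid sensing nuclear receptor expressed in most tissues, read 486, 514 and 441 in Yap HET and 551, 606 and 569.7 in Yap KO samples. The groups did not overlap, and the change of 0.26 ± 0.07 (interval 0.10 to 0.43) lay just outside the threshold (limma adjusted p = 0.055). Under 7 of 17 alternative settings it passed, among them quantile normalization (adjusted p = 0.0385) and cyclic loess (adjusted p = 0.032), with adjusted p-values of 0.0053 to 0.18 over all 17. Ppara, the receptor that dominates in heart and liver, had 202, 186 and 188 against 183, 179.6 and 188 and a change of -0.06 ± 0.05.

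The PGC-1 coactivators, which drive mitochondrial biogenesis, were both lower on every Yap KO array than on any Yap HET array, though neither was called. Ppargc1b read 543, 579.9 and 553 in Yap HET and 539, 447 and 413 in Yap KO samples, a change of -0.27 ± 0.09 (interval -0.49 to -0.05, limma adjusted p = 0.11). Yap KO replicate 1 lay close to the Yap HET values, and without it the change was -0.38 and past the threshold (limma adjusted p = 0.023). With any other array left out the change was -0.29 to -0.18 and not called (limma adjusted p of 0.18 to 0.28). Ppargc1a read 2596, 2695 and 2624 against 2527, 2312 and 2235, a change of -0.16 ± 0.06 (interval -0.30 to -0.03, limma adjusted p = 0.12). A second probe set of Ppargc1a gave a difference of -0.15. On Yap KO replicate 1, where both coactivators were highest of the Yap KO arrays, the erythroid markers were also highest, and the part of those cells was not tested.

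**Figure D3:**
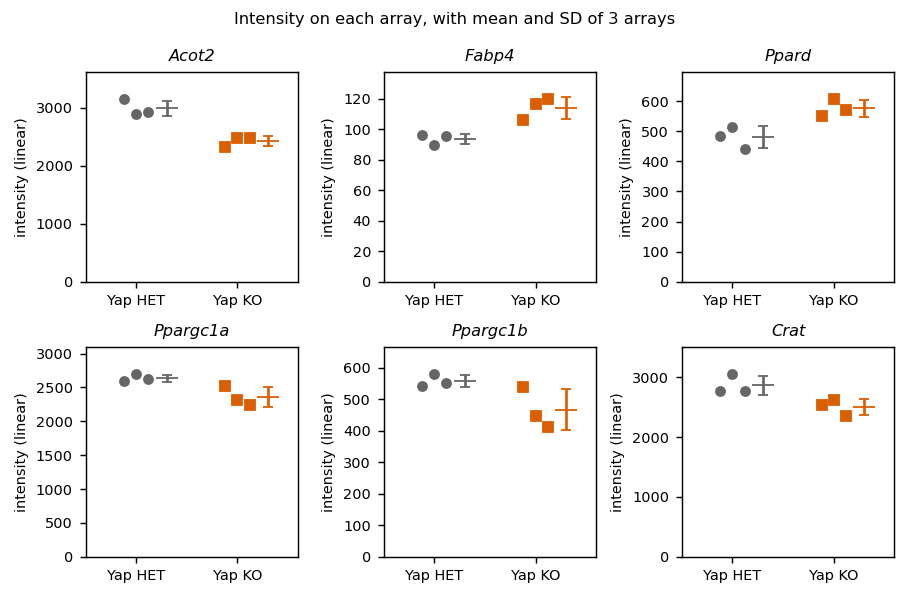
Intensity on each array (linear scale from 0) for Acot2, Fabp4, Ppard, Ppargc1a, Ppargc1b and Crat, circles for Yap HET and squares for Yap KO, with the mean and SD of 3 arrays beside them. In all 6 genes the groups did not overlap, and Acot2 and Fabp4 were past the threshold.

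Esrra, an estrogen-related receptor that works with the PGC-1 coactivators, had a change of 0.05 ± 0.05, and Mlycd, which removes the malonyl-CoA that blocks Cpt1, had 0.08 ± 0.07. Ucp3, a mitochondrial carrier tied to fatty acid oxidation in muscle, was not tested. It read 81.2, 71.6 and 84.8 in Yap HET and 91.8, 86.0 and 86.1 in Yap KO samples, around the filter.

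**Figure D4:**
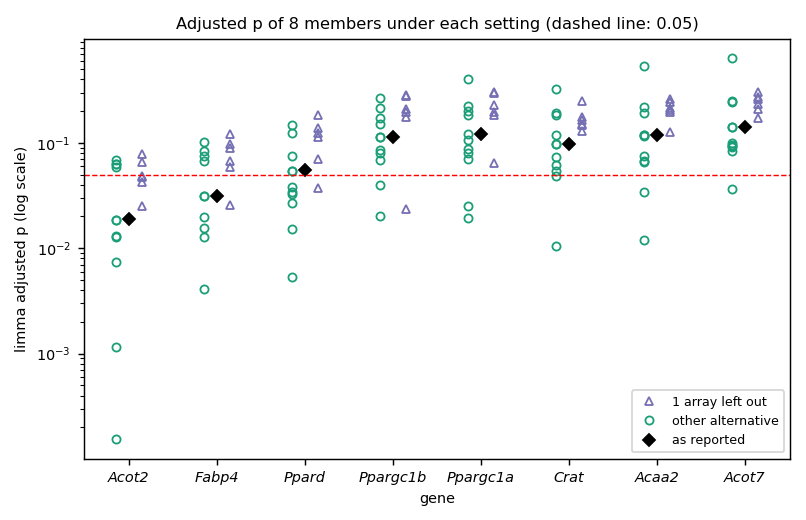
Limma adjusted p (log scale) of 8 members as reported (diamonds), with 1 array left out (triangles) and under the other alternatives (circles); the dashed line is 0.05. Each of the 8 genes had settings on both sides of the line, and as reported Acot2 and Fabp4 lay under it.

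Genes around the pathway were read from 10 lists with 142 different genes tested, of which 12 rose and 7 fell. This was 13.4%, beside 9.95% of all genes tested. Both counts include a gene with the mean of a group under the filter, Fabp7 among the rises and Vnn1 among the falls. Their median change was -0.02.

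Genes of triglyceride storage and lipolysis gave 4 rises and 0 falls among 21 tested by limma, and a median of 0.03. At an unadjusted limma p under 0.05 there were 8 higher and 2 lower. Gpam, which starts glycerolipid synthesis at the mitochondrion, read 495, 502 and 471 in Yap HET and 593, 647 and 610.3 in Yap KO samples (0.33 ± 0.06, limma adjusted p = 0.012). Lpin1, a phosphatidate phosphatase, rose by 0.38 ± 0.08, Dgat2, which makes triglyceride, by 0.30 ± 0.08 (limma adjusted p = 0.049), and Hilpda, a lipase inhibitor on lipid droplets that is induced by low oxygen, by 0.29 ± 0.07. The 2 genes lower at the unadjusted p were not called. Gpat3 had a change of -0.17 ± 0.05 (limma adjusted p = 0.070). Pnpla2, the main triglyceride lipase, had -0.20 ± 0.06 (limma adjusted p = 0.078). Abhd5, higher at the unadjusted p, had 0.19 ± 0.07 and was not called either (limma adjusted p = 0.11). With replicate 1 of Yap HET or replicate 2 of Yap KO left out 0 of the 4 called rises were kept, with replicate 3 of Yap HET or replicate 1 of Yap KO left out 1, and with replicate 3 of Yap KO left out 2.

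Among the receptors that pair with the PPARs and their cofactors, 2 of 20 rose. By limma 0 fell, though 5 were lower and 3 higher at an unadjusted p under 0.05. Pparg, the third PPAR and a regulator of fat storage, had a mean of 167 ± 22.6 (SD, n = 3) in Yap HET and 259 ± 14.3 in Yap KO samples, with no overlap and a change of 0.64 ± 0.10 (limma adjusted p = 0.0089). Rxrg, one of the retinoid X receptors with which PPARs form dimers, rose by 1.37 ± 0.16 from a dim mean of 95.4 to 245. Both calls were kept in all 6 fits that left out an array. Rxra, the receptor's main form in heart, had a change of -0.22 ± 0.07 (limma adjusted p = 0.095). Of 10 other PPAR target genes tested, Vnn1, a pantetheinase, and Slc25a42, the mitochondrial CoA carrier (-0.30 ± 0.07), fell. Vnn1 had a mean of 289 ± 28.4 (SD, n = 3) in Yap HET and 79.4 ± 7.68 in Yap KO samples, the latter under the filter, so that it passed the filter through the Yap HET arrays and the size of its fall (-1.87 ± 0.09) is uncertain. By limma 0 rose, though 3 were higher at an unadjusted p under 0.05. Angptl4 and Pdk4, widely used as PPAR targets, had changes of 0.18 ± 0.08 and -0.17 ± 0.06, neither past the test. Slc25a42 kept its call in 1 of the 6 fits that left out an array, that without Yap KO replicate 1.

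Uptake and activation genes outside the 47 gave 2 rises and 1 fall among 16 tested. Vldlr, the lipoprotein receptor that works with lipoprotein lipase, rose by 0.34 ± 0.07, a call that was kept in 1 of the 6 fits without an array, that without Yap KO replicate 3. Fabp7, a brain-type binding protein, rose from a Yap HET mean of 76.4, under the filter, to a Yap KO mean of 128. It thus passed the filter through the Yap KO arrays, and the size of its rise (0.74 ± 0.11) is uncertain. Acss1, which activates acetate in mitochondria, fell from 546, 603 and 546 to 421, 411 and 402 (-0.46 ± 0.06, limma adjusted p = 0.0048). In the peroxisomal list 2 of 15 rose, the fatty acid transporter Abcd2 (0.66 ± 0.07) and Hacl1 (0.24 ± 0.05), and Hsd17b4, the peroxisomal multifunctional enzyme, fell (-0.22 ± 0.05). Abcd2 kept its call without any single array, Hacl1 kept it only without Yap HET replicate 2, and Hsd17b4 lost it whichever array was left out.

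The remaining lists held few calls. Of 20 genes of branched-chain and related acyl-CoA oxidation, Echdc2 (-0.44 ± 0.08) and Dbt, a subunit of the branched-chain ketoacid dehydrogenase (-0.26 ± 0.05), fell. By limma 0 rose, though 2 were higher at an unadjusted p under 0.05. Both calls ended when replicate 1 of Yap HET or replicate 2 or 3 of Yap KO was left out, and that of Echdc2 also without replicate 3 of Yap HET. Of 22 fatty acid synthesis genes Hsd17b12, of the chain elongation cycle, rose (0.37 ± 0.05). By limma 0 fell, while 4 were lower and 3 higher at an unadjusted p under 0.05. Of the lower genes, Fasn, the fatty acid synthase, had -0.16 ± 0.05 and Scd1, a desaturase, -0.47 ± 0.13, both with a limma adjusted p of 0.063. Elovl4, among the higher genes and not called, had 0.29 ± 0.08 (limma adjusted p = 0.060). Pdk1, which holds back pyruvate oxidation, rose by 0.35 ± 0.07 among 13 genes of the pyruvate dehydrogenase switch, a call kept only without Yap HET replicate 2. Of 6 carnitine supply genes Shmt1 fell (-0.29 ± 0.05), also without Yap HET replicate 2 or 3 or Yap KO replicate 1 but in no other fit that left out an array. By limma 0 of 4 ketone body genes were called, and at an unadjusted p under 0.05 there were 1 higher and 1 lower. These were the monocarboxylate transporters Slc16a7 (0.25 ± 0.07, limma adjusted p = 0.059) and Slc16a1 (-0.20 ± 0.06, limma adjusted p = 0.065).

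**Figure D5:**
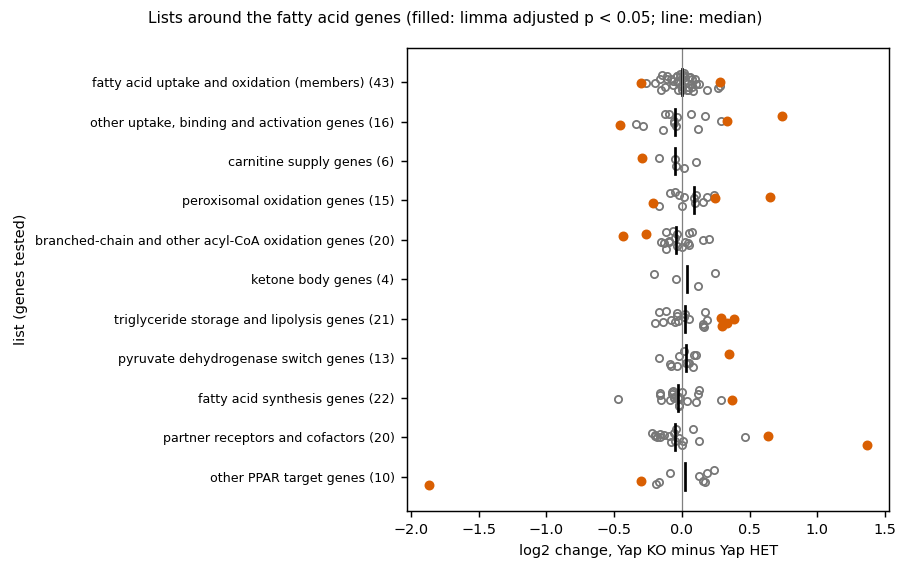
Log2 change, Yap KO minus Yap HET, of the 43 members and of the genes tested in 10 lists around the pathway, with 1 point for each gene, filled points past the threshold and a line at the median. Points are spread vertically within a list for legibility, and the point at -1.87 is Vnn1, whose Yap KO mean lay under the filter.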

How the data were processed

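Values were read from 6 arrays, 3 of Yap HET and 3 of Yap KO samples. The authors deposited probe set intensities on a linear scale, and the submitters' processing notes name RMA, which gives log2 values, and the sources used here do not state how the linear scale arose. Probe sets with 1 gene symbol in the platform annotation, 21789 of 35556, were used, with symbols updated through RefSeq (GRCm38.p6). The probe set with the highest mean intensity stood for a gene, and genes under the 40th percentile of probe set means, 86.4, were left out. No detection call was used. Log2 intensities were fitted with limma 3.58.1 in R 4.3.3 (lmFit, eBayes), the group as the only term, and the fit was tested on simulated data. Members, lists and motifs were chosen with earlier results of these data known. Values on each array are given for called members, the 3 of each step with the smallest p and those without overlap, and for some others named after their values were seen. In other lists, called genes are named, and some genes not past the test were added after their values were seen. The alternatives were other filters, probe set choices, normalizations and priors, weights for arrays, a block for the replicate number, and each array left out.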

Additional observations from a re-analysis of the deposited data

How the results depend on the processing

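Of the 43 members, 32 were called neither as reported nor under any alternative, and 9 only under an alternative. The 1355 genes and 2 members called became 508 and 0 with no filter (7 members at an unadjusted limma p under 0.05), 2251 and 6 with a trended robust prior, 256 and 0 with an unmoderated linear model (9 members at an unadjusted p under 0.05), and 4612 and 11 with array weights. Leaving out 1 array gave 434 to 1371 genes and 0 to 3 members, the lowest on leaving out replicate 1 of Yap HET or replicate 2 of Yap KO (8 and 6 members at an unadjusted limma p under 0.05). With the replicate block 693 genes and 0 members were called (8 at an unadjusted limma p under 0.05). The deviations of same-numbered arrays from their group means had correlations of -0.077, -0.17 and 0.124, beside -0.231 to 0.278 for arrays of different number. With so few arrays these values cannot show whether the samples were paired, and pairing is unknown.

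Median centring turned the split of called genes from 706 higher and 649 lower to 1043 and 338, and moved the median of all genes from -0.02 to 0.04. It moved the medians of activation, carnitine shuttle, beta-oxidation, thioesterases, regulators and all members to 0.0035, 0.0072, 0.060, 0.034, 0.055 and 0.060. The median of the thioesterases was -0.099 with array weights and -0.12 to 0.0060 with 1 array left out. The median of the regulators was 0.050 with no filter, -0.057 with a filter at the 60th percentile, -0.042 with array weights and -0.035 to 0.0020 with 1 array left out. With 1 array left out the median was -0.099 to -0.023 for activation, -0.087 to -0.015 for the carnitine shuttle, -0.012 to 0.022 for beta-oxidation and -0.019 to 0.022 for all members. The medians of beta-oxidation, thioesterases, regulators and all members thus had no fixed sign with 1 array left out. Those of activation and the carnitine shuttle changed sign with median centring. Median centring subtracts a single value from each array, so it moved the change of every gene by the same amount. Why the array medians differed, and the cause of the other shifts, was not tested. Signal near the filter limits Fabp4, Acad10, Acot1 and Ucp3.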
